A study of Mus musculus with 3 samples.

Results

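Among bone marrow derived macrophages (BMDMs), cells with the transcripts of G2 phase or mitosis were selected from droplet-based single-cell RNA sequencing data, in which a cell barcode and a unique molecular identifier (UMI) are read with each transcript. The BMDMs were grown from pooled bone marrow of female C3H/HeN mice aged 6 to 8 weeks in medium conditioned by L929 cells, a source of the growth factor CSF1, and then plated and treated in medium for which the methods name no such supplement, alike in all groups. One library each was made of cells given PBS (Ctrl, labelled untreated in the deposited records), of cells given purified lipoproteins of the Lyme disease agent *Borrelia burgdorferi* (*Bb*LP) at 1 µg/mL for 1 hour (LP1), and of cells given the same dose for 4 hours (LP4). Ctrl cells were collected at 4 hours. For sequencing, the methods name BMDMs derived from 3 mice and treated independently. Since 3 wells were pooled into each library and no condition was repeated, no test between conditions was possible. The intervals below, all at the 95% level, therefore cover counting error only. A cell was taken as being in G2 or mitosis (G2/M cell) when it held 3 or more UMIs summed over *Cenpf*, *Prc1*, *Ube2c* and *Birc5* and at least 2 of these 4 genes, among barcodes whose UMIs and detected genes both exceeded 500 and whose mitochondrial share stayed below 5%. The study names the same limits but counts fewer cells after them, so the kept cells here, over which all shares are taken, are a larger set. This rule found 965 of 15806 kept cells: 312 of 6071 in Ctrl, 410 of 5065 in LP1 and 243 of 4670 in LP4. They were described against the kept cells with no UMI of the 4 genes (0-UMI cells), of which there were 5262, 4094 and 3959. The 497, 561 and 468 cells between both definitions entered neither.

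The 4 genes of the rule work late in the cell cycle. *Cenpf* encodes a kinetochore protein, *Prc1* a protein that bundles the microtubules of the central spindle, *Ube2c* the ubiquitin-conjugating enzyme that works with the anaphase-promoting complex (APC/C), and *Birc5* survivin, a subunit of the chromosomal passenger complex. Their transcripts accumulate from late S phase to mitosis, and in most such promoters this timing is set by a cell cycle homology region (CHR), bound by the MuvB complexes, next to CCAAT boxes, bound by NF-Y. Macrophages in culture need CSF1 to divide, and bacterial lipoproteins reach them mainly through the receptor TLR2. On GRCm38 (mm10), with the GENCODE vM21 annotation, *Cenpf* (ENSMUSG00000026605) lies on chromosome 1 from 189640606 to 189688086, *Prc1* (ENSMUSG00000038943) on chromosome 7 from 80294450 to 80316259, *Ube2c* (ENSMUSG00000001403) on chromosome 2 from 164769898 to 164778822 and *Birc5* (ENSMUSG00000017716) on chromosome 11 from 117849251 to 117855743. The genes *Mki67* (ENSMUSG00000031004, chromosome 7, 135689784 to 135716361), which encodes the Ki-67 protein, and *Top2a* (ENSMUSG00000020914, chromosome 11, 98992943 to 99024189), which encodes topoisomerase II alpha, also mark these phases and were not part of the rule.

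The promoters of 3 rule genes and of both further marker genes are shown because they carry, in short reach of the start, the letters that mitotic promoters share. Each line gives 184 bases, from 200 to 17 bases before the RefSeq start site, 5′ to 3′ on the strand of the gene. Capitals mark a CHR (TTTGAA or TTCGAA) or a CCAAT box (CCAAT) read on either strand, so that TTCAAA and ATTGG are the same motifs on the other strand. TTCGAA reads the same on both strands.
Cenpf (GRCm38.p6, chr1:189688103-189688286, minus strand): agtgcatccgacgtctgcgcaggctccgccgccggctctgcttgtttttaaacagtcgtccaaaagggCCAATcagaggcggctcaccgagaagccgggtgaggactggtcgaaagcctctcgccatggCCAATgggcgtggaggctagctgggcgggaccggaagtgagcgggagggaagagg
Prc1 (GRCm38.p6, chr7:80294276-80294459, plus strand): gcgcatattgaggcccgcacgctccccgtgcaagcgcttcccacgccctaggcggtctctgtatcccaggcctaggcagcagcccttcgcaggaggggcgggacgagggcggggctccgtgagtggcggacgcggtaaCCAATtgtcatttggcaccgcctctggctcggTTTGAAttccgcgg
Ube2c (GRCm38.p6, chr2:164769729-164769912, plus strand): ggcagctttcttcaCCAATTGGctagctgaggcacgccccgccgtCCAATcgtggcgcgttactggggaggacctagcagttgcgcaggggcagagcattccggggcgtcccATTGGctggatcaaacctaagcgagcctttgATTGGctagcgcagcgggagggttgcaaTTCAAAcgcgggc
Top2a (GRCm38.p6, chr11:99024206-99024389, minus strand): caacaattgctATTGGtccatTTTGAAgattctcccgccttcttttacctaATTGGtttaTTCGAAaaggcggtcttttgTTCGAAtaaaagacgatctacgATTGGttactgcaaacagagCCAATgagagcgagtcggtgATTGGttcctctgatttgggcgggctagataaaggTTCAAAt
Mki67 (GRCm38.p6, chr7:135716396-135716579, minus strand): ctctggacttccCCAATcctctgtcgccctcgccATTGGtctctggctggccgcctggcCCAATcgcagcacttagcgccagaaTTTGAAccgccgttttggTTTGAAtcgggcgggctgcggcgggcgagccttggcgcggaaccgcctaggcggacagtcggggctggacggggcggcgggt
*Prc1* held 1 CHR and 1 CCAAT box in this stretch, and *Ube2c* held 1 CHR and 5 CCAAT boxes, of which a pair overlaps. *Top2a* held 4 CHR and 5 CCAAT boxes, and *Mki67* 2 CHR and 3 CCAAT boxes. *Cenpf* held 2 CCAAT boxes here and a CHR just after its start site, at position 3, and neither motif occurred in the 300 bases given for *Birc5*. Over the 6 lists of mitotic genes described below and the 4 rule genes, 86 of 106 genes had a RefSeq promoter, with 98 promoters of 300 bases, from 250 bases before the start to 50 after it. A CHR was present in 61 of these (62.2%) and in 6316 of all 32851 promoters (19.2%), and in 13.0% of the promoters of genes at 50 CPM or more in G2/M cells of every library. CCAAT boxes were present in 69 (70.4%) and in 37.4% of all promoters, and both motifs in 48 (49.0%) and in 7.52%. Among promoters of DNA replication genes, a CHR was present in 7 of 45 (15.6%) and a CCAAT box in 25 (55.6%). Interferon-stimulated genes held a CHR in 13 of 35 promoters (37.1%), also above the share of all promoters, and a CCAAT box in 13. These are matches of letters and do not show binding.

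Of the kept cells, 5.14% of Ctrl (exact binomial interval 4.60 to 5.72), 8.09% of LP1 (7.36 to 8.88) and 5.20% of LP4 (4.58 to 5.88) were taken as being in G2 or mitosis. Cells were counted at very different depths, however, and a rule on UMIs finds more cells in a deeper library. Over all kept cells, the Ctrl library counted 35688939 UMIs, the LP1 library 52475723 and the LP4 library 61402275. The median G2/M cell held 8643.5 UMIs (Ctrl), 14637 UMIs (LP1) or 20901 UMIs (LP4), and the median 0-UMI cell 4951, 8936 or 11235 UMIs. Within each library, G2/M cells were thus deeper by 1.75, 1.64 and 1.86 times. After each cell was thinned to 2000 UMIs, the rule was passed by 1.60% of Ctrl (95 of 5949 cells, 1.29 to 1.95), 1.84% of LP1 (93 of 5052, 1.49 to 2.25) and 1.06% of LP4 (49 of 4625, 0.785 to 1.40). The 122, 13 and 45 shallower cells were left out, among them 6 G2/M cells of Ctrl and none of the treated libraries. At 4000 UMIs the shares were 4.01% in Ctrl (3.44 to 4.63), 3.71% in LP1 (3.20 to 4.28) and 2.53% in LP4 (2.10 to 3.03), where 1753, 133 and 133 cells were too shallow. LP1 therefore had the highest share at the depth of the libraries, but its interval overlapped that of Ctrl once depth was equal. LP4 was below Ctrl at both depths, with intervals that overlapped at 2000 UMIs and were apart at 4000 UMIs.

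**Figure D1:**
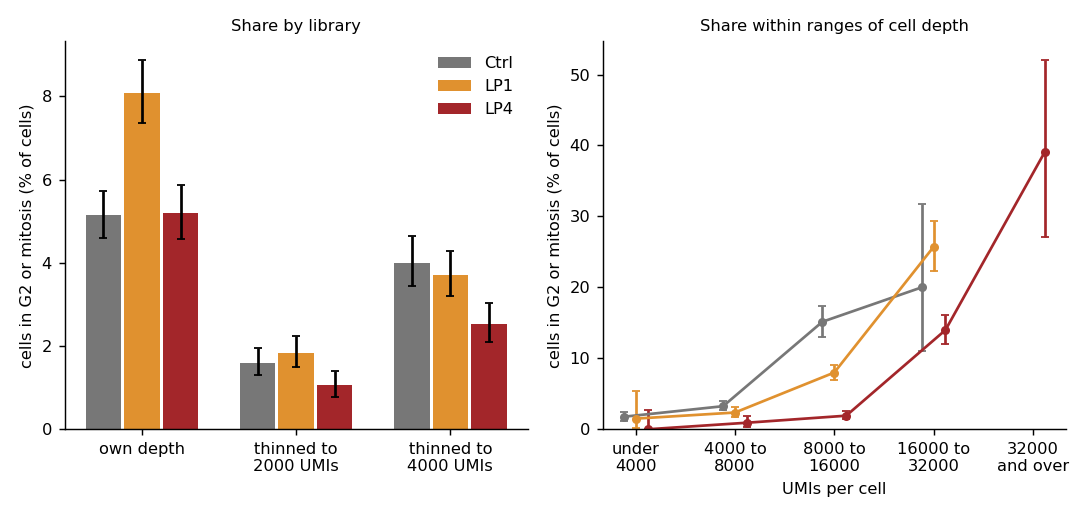
Share of cells in G2 or mitosis, with exact binomial 95% intervals as error bars (counting error only). The left panel gives the percent of kept cells per library at the depth of the libraries and after thinning each cell to 2000 or 4000 UMIs, and the right panel the percent within ranges of UMIs per cell that hold at least 20 cells. LP1 stands highest at left (8.09%) but not after thinning to 4000 UMIs, and from 8000 to 16000 UMIs per cell the order is Ctrl, LP1, LP4, while from 16000 to 32000 UMIs LP1 (25.7%) stands above Ctrl (20.0%).

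Levels summed over all kept cells, which do not depend on how many cells pass the rule, are given as UMIs per 1000000 UMIs (CPM). Together, the 4 rule genes stood at 94.4, 113 and 74.3 CPM over all kept cells of Ctrl, LP1 and LP4, with exact Poisson intervals of 91.2 to 97.6, 111 to 116 and 72.2 to 76.5. This order, LP1 above Ctrl above LP4, is that of the cells thinned to 2000 UMIs, but at 4000 UMIs Ctrl stood above LP1. As the same 4 genes make up the rule, the shared order is no support. Without the 4 rule genes, the lists of mitotic genes summed to 2967 CPM in Ctrl (2949 to 2985). They summed to 3363 CPM in LP1 (3348 to 3379) and 2873 CPM in LP4 (2860 to 2887), which is the same order. *Top2a* stood at 70.1 CPM in Ctrl and 57.6 CPM in LP4, and *Mki67* at 221 and 299 CPM, so *Top2a* was lower and *Mki67* higher in LP4. Among cells of 8000 to 16000 UMIs, the share in G2 or mitosis was 15.2% for Ctrl (165 of 1089), 8.00% for LP1 (210 of 2625) and 1.92% for LP4 (49 of 2558). From 16000 to 32000 UMIs, LP1 stood above Ctrl, at 25.7% (156 of 607, 22.3 to 29.4) against 20.0% (13 of 65, 11.1 to 31.8), with intervals that overlapped, and LP4 was at 14.0% (162 of 1158). A range of UMIs takes the deep cells of Ctrl and the middle ones of LP4. How far depth sets the share of each library was not tested beyond these values.

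The genes of the rule were not seen equally in its cells. *Birc5* had a UMI in 273 of 312 G2/M cells of Ctrl (87.5%), 390 of 410 of LP1 (95.1%) and 234 of 243 of LP4 (96.3%), whereas *Ube2c* had one in 152 (48.7%), 253 (61.7%) and 172 (70.8%). All 4 genes were present in 36.2%, 42.2% and 53.5% of them, and the median G2/M cell held 7, 8 and 12 UMIs of the 4 genes, which rises with the depth of the libraries. As these values chose the cells, they are a description only. Exactly 3 UMIs were held by 51 Ctrl cells, 61 LP1 cells and 17 LP4 cells.

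How the other marker genes stood on both sides of the limit was examined in bins of rule-gene UMIs. In Ctrl, *Top2a* stood at 11.8 CPM in 0-UMI cells, 327 CPM in the 71 cells just outside the rule (2 UMIs of 2 genes, or 3 or more of 1 gene), 297 CPM in the 51 cells just inside it and 937 CPM in the 108 cells with 10 or more UMIs. In LP4 these values were 7.87, 92.9, 154 and 678 CPM. Cells just outside the rule thus held far more *Top2a* than 0-UMI cells in each of these libraries. *Mki67* ran from 144 to 1236 CPM in Ctrl and from 241 to 1021 CPM in LP4 between 0-UMI cells and cells with 10 or more UMIs. *Mcm6*, a subunit of the replicative helicase, followed another course, and in Ctrl it stood at 49.7 CPM in 0-UMI cells, 221 CPM just outside the rule and 107 CPM at 10 or more UMIs. *Csf1r*, the CSF1 receptor, was lower inside the rule, at 791 CPM in 0-UMI cells (781 to 802) and 620 CPM at 10 or more UMIs (573 to 670) in Ctrl and at 437 and 314 CPM in LP4.

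**Figure D2:**
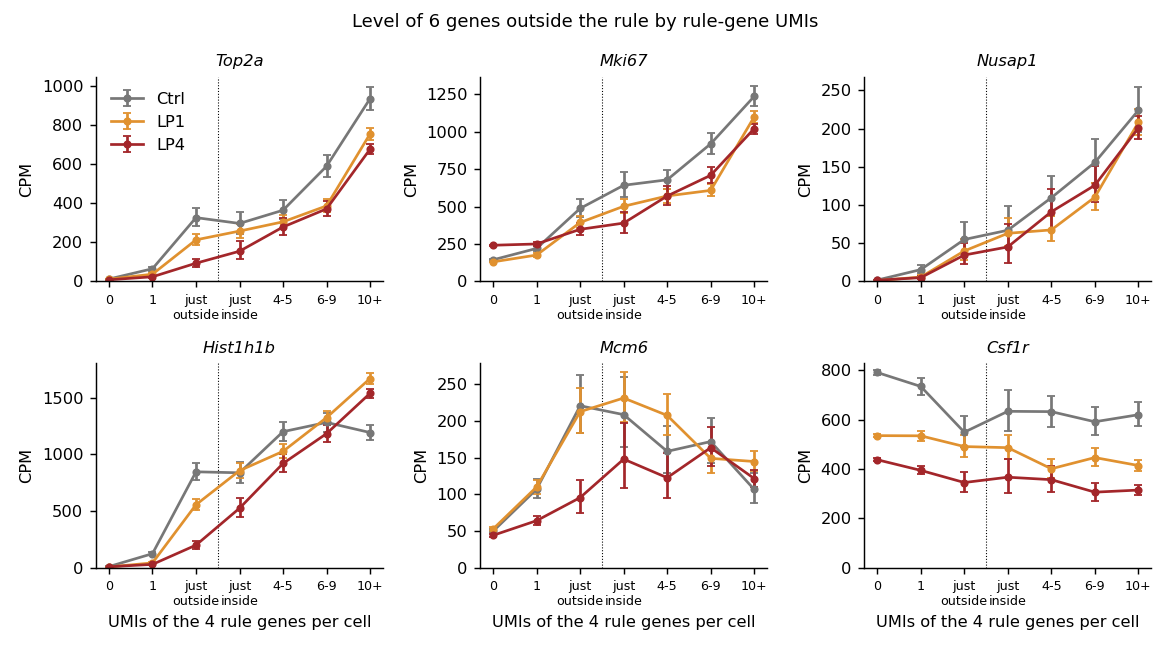
CPM of 6 genes outside the rule against the number of rule-gene UMIs per cell, one line per library, with exact Poisson 95% intervals. The dotted line is the limit of the rule, with the cells just outside and just inside it next to the line. *Top2a*, *Mki67*, *Nusap1* and *Hist1h1b* are highest in cells with 6 or more rule-gene UMIs. *Mcm6* is highest next to the limit in Ctrl and LP1 but not in LP4, and *Csf1r* lies between 306 and 791 CPM in all bins.

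For each gene, UMIs were summed over the G2/M cells and over the 0-UMI cells of a library, and the log2 ratio of both CPM values was taken where the higher was at least 50 CPM. The G2/M cells of Ctrl contributed 2775800 UMIs, those of LP1 6115847 and those of LP4 5271726. A ratio of 2-fold or more is called past 2-fold. Of 3606 genes so compared in Ctrl, 213 (5.91%) were higher and 30 (0.832%) lower past 2-fold in G2/M cells. In LP1, 209 of 3583 genes (5.83%) were higher and 10 (0.279%) lower, and in LP4, 206 of 3676 (5.60%) were higher and 18 (0.490%) lower. In all 3 libraries, 146 of 3016 genes (4.84%) were higher and 4 (0.133%) lower. The median log2 ratio of all genes was 0.03, 0.05 and 0.04. With TMM scaling, an alternative to CPM, the counts were 165 higher and 62 lower in Ctrl, 163 and 34 in LP1, and 137 and 118 in LP4. TMM shifted all log2 ratios of LP4 by -0.33, those of Ctrl by -0.18 and those of LP1 by -0.16. The medians above were small and positive, so this shift moved the middle of these genes further from equality between G2/M and 0-UMI cells. Because the rule fixed this contrast, the genes below describe the cells and are not tested.

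Mitotic genes of 6 lists stood far above the 0-UMI cells. Over these lists, 102 genes were measured, 55 reached 50 CPM in every library, and 52 of these were higher past 2-fold in all 3, against 4.84% of all genes. Most reached 50 CPM only through the G2/M cells, so this count and those of the single lists below are no support. Over the genes compared, the median log2 ratio was 3.68, 3.84 and 4.24 for Ctrl, LP1 and LP4. In that order, *Top2a* stood at 628, 531 and 554 CPM in G2/M cells, against 11.8, 11.1 and 7.87 CPM in 0-UMI cells, a log2 ratio of 5.74 (exact interval 5.57 to 5.91), 5.58 (5.44 to 5.73) and 6.14 (5.98 to 6.29). *Mki67* stood at 945, 821 and 884 CPM against 144, 130 and 241 CPM. It thus had a sizeable level outside the G2/M cells, and its ratio was smallest in LP4 at 1.88 (1.83 to 1.92).

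Among the 18 kinases and cyclins of mitotic entry, the 6 that reached 50 CPM in every library were all higher past 2-fold in G2/M cells, against 4.84% of all genes. They were *Ccna2*, *Ccnb1*, *Ccnb2* and *Ccnf*, which encode cyclins, and *Cks1b* and *Cks2*, subunits of cyclin-dependent kinases. *Ccnb1*, cyclin B1, stood at 78.9, 73.4 and 71.5 CPM in Ctrl, LP1 and LP4, against under 1 CPM in 0-UMI cells of each. *Ccna2*, cyclin A2, stood at 79.6, 94.0 and 102 CPM. *Cks2* had the smallest ratios of the 6, at 2.37, 2.35 and 2.62, and 0-UMI cells held from 13.9 to 20.2 CPM of it.

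Genes of the chromosomal passenger complex, the kinetochore and the spindle checkpoint had a median log2 ratio of 4.70 in Ctrl, 4.66 in LP1 and 5.26 in LP4, with 11 of 11 past 2-fold in every library (4.84% of all genes). *Cenpe*, a kinetochore motor, stood at 270, 232 and 217 CPM against 8.29, 8.20 and 4.22 CPM in 0-UMI cells. *Cdca8*, a passenger subunit, stood at 271, 185 and 171 CPM. The level of *Incenp*, the scaffold of that complex, was 31.2 CPM in 0-UMI cells of Ctrl and 9.08 CPM in those of LP4, against 246 and 145 CPM in G2/M cells.

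Spindle genes and mitotic kinesins were higher past 2-fold in every library in 14 of 14 cases, where 4.84% of all genes were. *Hmmr*, which encodes a spindle protein, had 107, 89.1 and 87.1 CPM against under 1 CPM in 0-UMI cells, and *Nusap1*, which encodes a microtubule-binding protein, had 159, 143 and 167 CPM against 1.66, 0.925 and 1.41 CPM. *Kif4*, a chromokinesin gene, had ratios of 5.88, 6.68 and 7.38. *Tubb5*, a tubulin gene used outside mitosis too, had 871, 884 and 927 CPM against 197, 205 and 261 CPM, and *Stmn1*, which encodes a tubulin-binding protein, 753, 652 and 455 CPM. For cytokinesis, 6 of 7 genes were past 2-fold in all libraries, among them *Racgap1*, a subunit of the centralspindlin complex (log2 ratio 5.42, 5.56 and 6.08), and *Anln*, which encodes the contractile ring protein anillin (5.64, 5.64 and 5.94). Condensins and other chromosome proteins were higher in 13 of 13 cases with smaller ratios, a median of 2.76, 2.69 and 3.12. *H2afz*, a histone variant, stood at 1204, 1417 and 1429 CPM against 389, 466 and 545 CPM. Only 2 of the 4 genes of the APC/C and mitotic exit were past 2-fold in all libraries, *Ube2s*, another conjugating enzyme of the complex (1.92, 1.79 and 1.66), and *Pttg1*, securin (3.96, 4.62 and 3.46). *Anapc11*, a subunit of the complex itself, had ratios of 0.75, 0.60 and 0.87.

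**Figure D3:**
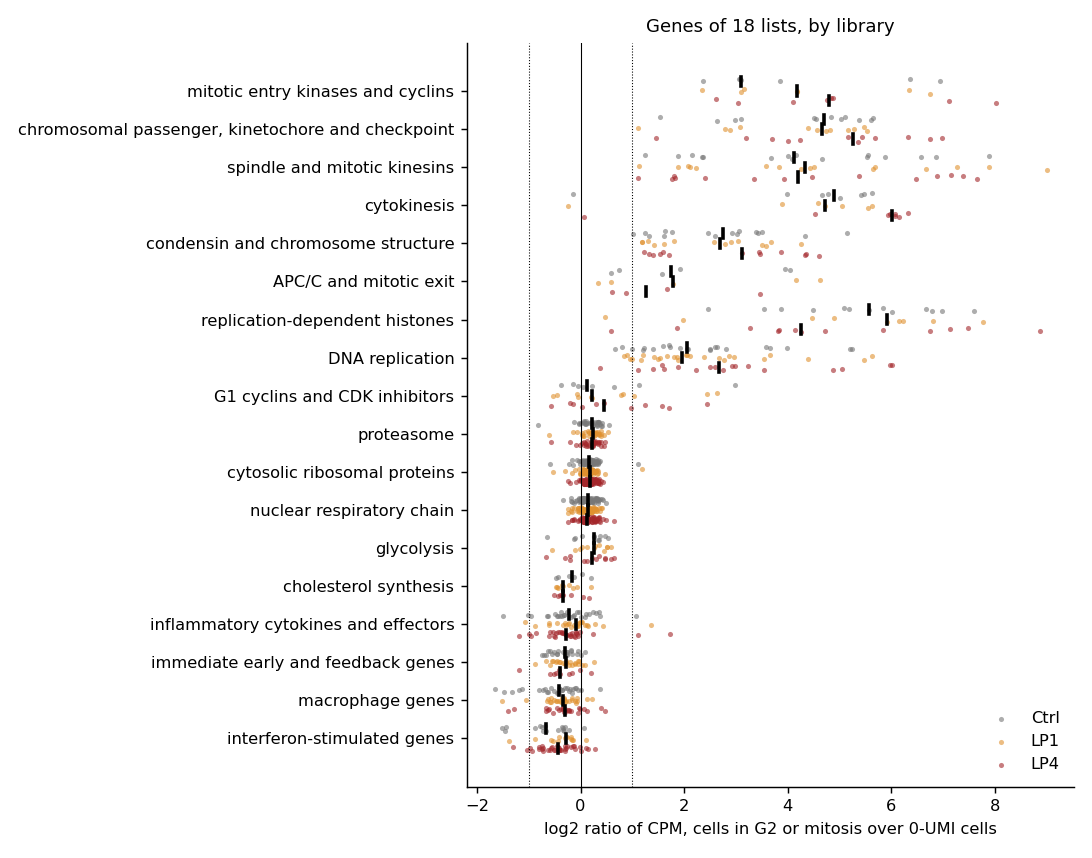
Log2 ratio of CPM in G2/M cells over 0-UMI cells for the genes of 18 lists that reached 50 CPM, in Ctrl, LP1 and LP4. Points are genes, black bars the median of a list in a library, and dotted lines 2-fold. The medians of the mitotic, histone and replication lists lie above 1, and those of the macrophage and interferon lists below 0 in each library.

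Replication-dependent histone genes had some of the largest ratios. Summed over 67 genes they stood at 5153 CPM in G2/M cells of Ctrl, 3572 in LP1 and 4486 in LP4, against 178, 173 and 258 CPM in 0-UMI cells. *Hist1h1b*, a linker histone gene, had 1170, 1376 and 1355 CPM against 9.20, 6.30 and 7.60 CPM, and *Hist1h2ap* had 1045, 538 and 854 CPM against 9.41, 4.80 and 6.04 CPM. *Hist1h1a* had ratios of 5.85, 5.92 and 6.76 and *Hist1h2ae* of 6.01, 6.23 and 5.83. Most transcripts of this family end in a stem-loop and not in a poly(A) tail, which 3′ capture relies on, and its copies are nearly identical, so single levels are uncertain. DNA replication genes had a median of 2.07, 1.97 and 2.67. Of 48 listed, 17 reached 50 CPM in every library and 15 of these were higher past 2-fold in all 3, against 4.84% of all genes. Several reached 50 CPM only through the G2/M cells, so for this list and the histones, too, count and median are no support. *Rrm1*, a subunit of ribonucleotide reductase, stood at 160, 154 and 157 CPM against 22.8, 21.2 and 16.6 CPM, and *Pcna*, the sliding clamp, at 165, 311 and 432 CPM against 94.5, 174 and 200 CPM. Of the G1 cyclins and CDK inhibitors, 2 of 8 genes were higher past 2-fold in all libraries (4.84% of all genes), *Ccnd1*, cyclin D1 (1.13, 1.04 and 1.24), and *Cdkn2d*, an inhibitor of CDK4 and CDK6 (2.98, 2.64 and 1.58). *Cdkn2d* reached 50 CPM only through the G2/M cells, so this count is no support either. TMM and median of ratios scaling bring *Ccnd1* under 2-fold in each library. *Cdkn1a*, the p21 inhibitor, stood at 507, 633 and 449 CPM in G2/M cells and 437, 545 and 438 CPM in 0-UMI cells.

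The G2/M cells were not of one kind. Thinned to 2000 UMIs, the median G2/M cell of Ctrl held 9 histone UMIs, that of LP1 5 and that of LP4 7, with quartiles from 2 to 16.8, from 1 to 12 and from 2 to 15. In Ctrl, the 77 cells with the most histone UMIs (17 to 54) had 1026 CPM of *Top2a* and 162 CPM of *Rrm2*, a ribonucleotide reductase subunit made in S phase, while the 94 cells with the fewest (0 to 2) had 335 and 37.2 CPM. *Plk1* and *Cdc20*, which act in mitosis, had 11 and 4 UMIs in the first group and 18 and 12 in the second, and the intervals of their CPM overlapped. In LP1 and LP4, *Top2a* was likewise higher in cells with many histone UMIs, at 755 against 274 CPM and at 914 against 319 CPM. *Pclaf*, which encodes a PCNA-binding factor, stood at 221 CPM with many and 95.7 CPM with few histone UMIs in Ctrl, so cells of few histone UMIs held fewer transcripts of S phase but did not lack them. *Rrm2* stood at 198 against 17.7 CPM in LP1 and at 109 against 34.7 CPM in LP4, where the intervals overlapped. The values of these S phase genes go against the name G2 or mitosis for cells with many histone UMIs. The phase of those cells was not tested.

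Outside the cell cycle, 4 genes were lower past 2-fold in all 3 libraries. *Apoe*, apolipoprotein E, stood at 140 CPM in G2/M cells of Ctrl, 90.1 in LP1 and 77.2 in LP4, against 389, 259 and 204 CPM in 0-UMI cells. Its log2 ratio was -1.48 (-1.63 to -1.33), -1.52 (-1.65 to -1.40) and -1.40 (-1.55 to -1.26). *Selenop*, the secreted selenoprotein P, had ratios of -1.13, -1.05 and -1.29, *Slfn5*, an interferon-stimulated gene, -1.45, -1.38 and -1.30, and *Clec4n*, which encodes the C-type lectin dectin-2, -1.42, -1.04 and -1.24. These ratios depended on the depth of the reference. Against 0-UMI cells matched to the G2/M cells on total UMIs, *Apoe* had ratios of -0.89, -0.96 and -0.52 and *Selenop* of -0.77, -0.73 and -0.62. *Clec4n* had -0.94 in Ctrl and -0.98 in LP1, and only *Slfn5* of the 4 stayed past 2-fold, at -1.33, -1.31 and -1.14. Next to these, against all 0-UMI cells, came *Fcgrt*, the neonatal Fc receptor (just past 2-fold in Ctrl, -0.95 in LP1 and -1.31 in LP4), *Cd86*, a costimulatory ligand (-1.44, -0.92 and -0.93), *Tmcc3* (-0.87, -1.17 and -1.01), *Cmss1* (-0.87, -0.92 and -0.91) and *Atp13a2*, which encodes a lysosomal transporter (-0.86, -0.81 and -0.78). *Cd74*, the invariant chain and the one gene of MHC class II handling that reached 50 CPM, had -0.80, -0.98 and -1.34. With the matched reference, *Cd86* had -0.92, -0.42 and -0.64, *Cd74* -0.50, -0.53 and -1.13, and *Fcgrt* -0.53 in Ctrl and -0.63 in LP1, and *Cmss1* turned to 0.14 in LP4. Over the 30 macrophage genes measured, the median was -0.42, -0.33 and -0.31, and *Lyz2*, lysozyme, stood at 6070, 6905 and 6000 CPM against 9708, 10274 and 9184 CPM. With TMM scaling and all 0-UMI cells as reference, more genes were lower past 2-fold in all 3 libraries. Among them were *Cd86* (-1.62, -1.08 and -1.26) and *Fcgrt* (-1.18, -1.11 and -1.64).

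Interferon-stimulated genes as a list had a median of -0.67 in Ctrl over 17 genes, -0.29 in LP1 over 14 and -0.43 in LP4 over 37. Their summed level was 1478 CPM in G2/M cells of Ctrl, 1458 in LP1 and 14365 in LP4, against 2302, 1956 and 21192 CPM in 0-UMI cells. With 0-UMI cells of matched depth as reference, the list had medians of -0.38, -0.22 and -0.38. Inflammatory cytokines had -0.23, -0.09 and -0.29, but with that reference 0.10, 0.03 and -0.07. *Ccl2*, a monocyte chemoattractant, was the one cytokine gene higher past 2-fold in G2/M cells of every library, at 129, 378 and 652 CPM against 61.4, 148 and 197 CPM. With TMM or median of ratios scaling its log2 ratio in Ctrl was 0.89, under 2-fold. Immediate early genes had medians of -0.30, -0.27 and -0.41. Cholesterol synthesis genes had -0.17, -0.35 and -0.34.

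Small positive medians were found for glycolysis (0.26, 0.27 and 0.23), the proteasome (0.22, 0.25 and 0.23), cytosolic ribosomal proteins (0.17, 0.18 and 0.19) and the nuclear respiratory chain (0.14, 0.15 and 0.13). No gene of glycolysis, the proteasome or the respiratory chain was past 2-fold in any library. *Gapdh* had the log2 ratios 0.47, 0.50 and 0.47. TMM scaling lowered every ratio of G2/M to 0-UMI cells by 0.18 in Ctrl, 0.16 in LP1 and 0.33 in LP4. With it, the medians of glycolysis, the proteasome, ribosomal proteins and the respiratory chain turned negative in LP4, at -0.10, -0.10, -0.14 and -0.20, that of the respiratory chain also in Ctrl and LP1 (-0.04 and -0.02) and that of ribosomal proteins in Ctrl (-0.01). As TMM shifts all ratios of a library by 1 amount, only medians this close to 0 could turn, and the signs of these small medians depend on the scaling.

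The label of the cells as macrophages was examined with markers of other cell types. All 8 macrophage markers (*Csf1r*, *Adgre1*, *Cd68*, *Lyz2*, *Mrc1*, *Fcgr1*, *Mertk* and *Itgam*) were seen in the G2/M cells of each library, and 5 or more in 221 of 312 (70.8%), 376 of 410 (91.7%) and 224 of 243 (92.2%), against 65.8%, 86.0% and 93.5% of the shallower 0-UMI cells. Their summed level was lower in G2/M cells, at 8033, 8778 and 7692 CPM against 12086, 12413 and 11262 CPM, with *Lyz2* most abundant. The 14 neutrophil markers, however, summed to 2578 CPM in G2/M cells of Ctrl, 1780 in LP1 and 3792 in LP4, against 375, 309 and 439 CPM in 0-UMI cells, with *S100a8* (1101 CPM in Ctrl) or *S100a9* (736 and 1798 CPM in LP1 and LP4) most abundant in G2/M cells. Of these UMIs, 94.5%, 91.1% and 94.7% lay in 12 G2/M cells of each library that held 100 or more of them. These 36 cells had medians of 17, 41 and 80 macrophage marker UMIs, against 63.5, 119 and 142 over all G2/M cells, but were also shallower, with medians of 3935, 7123 and 11447.5 UMIs in all. Just 1 of the 36 had 5 or more of the 8 macrophage markers, while most 0-UMI cells did at median depths of 4951, 8936 and 11235 UMIs, so the data go against the name macrophage for them. Progenitor markers also summed higher in G2/M than in 0-UMI cells, at 109, 103 and 47.2 CPM against 7.33, 9.48 and 5.80 CPM, with *Mpo* or *Elane* most abundant. As *Mpo* and *Elane* are also among the 14 neutrophil markers, the progenitor sum in part counts the same UMIs again. Dendritic, lymphoid, mast cell and stromal markers summed to under 10 CPM in G2/M cells of every library, and erythroid markers to 0, 1 and 1 UMIs.

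Without cells of 100 or more neutrophil marker UMIs, 300, 398 and 231 G2/M cells were left, and 139 genes in place of 146 were higher past 2-fold in all 3 libraries, with 4 lower as before. *S100a8* then stood at 11.4, 11.0 and 24.5 CPM in G2/M cells. *Top2a* kept log2 ratios of 5.72, 5.57 and 6.12, and *Apoe* of -1.45, -1.50 and -1.37. Doublets were not removed. Of the G2/M cells, 16, 42 and 16 (5.13%, 10.2% and 6.58%) were among the 5% of barcodes with the highest Scrublet scores, against 4.24%, 3.22% and 3.76% of 0-UMI cells. Kept barcodes shared by pairs of libraries were 9 (Ctrl and LP1), 7 (Ctrl and LP4) and 3 (LP1 and LP4), and 1 of them was a G2/M cell in both LP1 and LP4.

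After 1 hour of *Bb*LP, few genes of G2/M cells were past 2-fold from Ctrl. Of 3623 genes, 26 (0.718%) were higher and 33 (0.911%) lower, with a median of 0.00. In 0-UMI cells, 28 of 3312 (0.845%) were higher and 16 (0.483%) lower. *Cebpb*, a transcription factor of the inflammatory response, had 78.9 CPM in G2/M cells of Ctrl and 296 CPM in LP1, a log2 ratio of 1.91 (1.70 to 2.12), and 1.81 in 0-UMI cells. *Ccl4*, a chemokine gene, had 44.7 and 152 CPM (1.77), and *Ccl2* had 129 and 378 CPM (1.55, 1.39 to 1.72). *Osm*, the cytokine oncostatin M, followed with 16.2 and 53.3 CPM (1.72). The other genes among the 10 largest rises were *Gnb2*, a G protein subunit (1.55), *Selenok*, a selenoprotein (1.53), *Cers2*, a ceramide synthase (1.51), *Pfn1*, profilin (1.40), *Arf5*, a small GTPase (1.39), and *Srp9*, of the signal recognition particle (1.30). Among the inflammatory genes, 6 of 27 were higher past 2-fold and none lower, against 0.718% and 0.911% of all genes, and of the immediate early genes 1 of 24 was, *Zfp36*, which encodes the mRNA decay factor tristetraprolin. *Junb*, of the same list, stood at 518 and 1034 CPM, just under 2-fold. *Ccl4* reached 50 CPM only through LP1, so the count of inflammatory genes is no support. Histone genes were lower, with a median of -0.99 and 7 of 14 past 2-fold (0.911% of all genes), among them *Hist1h4d* at 436 and 145 CPM (-1.58) and *Hist1h4h* at 158 and 47.7 CPM (-1.73). Of the 10 largest falls, 6 were histone genes, with *Hist1h3e* (-1.59), *Hist2h2aa1* (-1.45), *Hist1h3c* (-1.14) and *Hist2h2ac* (-1.13) beside these. The other 4 were *Uqcr11*, a subunit of respiratory complex III (-1.21), *Lst1* (-1.20), *Romo1*, a mitochondrial membrane protein gene (-1.20), and *Tnfrsf13b*, which encodes the receptor TACI (-1.13). The linker histone *Hist1h1b* was not, at 1170 and 1376 CPM (0.23). *Hist1h4h* reached 50 CPM only through Ctrl, so the count and median of the histone genes are no support. Over the 66 mitotic genes compared, none was past 2-fold in either direction, the median was -0.10, and *Pcna* had a ratio of 0.92 (0.77 to 1.07). Between both classes, the ratio of LP1 to Ctrl differed past 2-fold for 3 of 3812 genes (0.0787%), *Aspm*, *C1qb* and *Hmmr*, each higher in G2/M cells. *Aspm* rests on 11 and 5 UMIs in 0-UMI cells of Ctrl and LP1 (1.12, -0.42 to 2.66). Its ratios to 0-UMI cells were 7.89 and 9.01. With the matched reference they were 7.94 and 8.01, on 2 and 3 UMIs, too few to decide the call. With all other kept cells as the reference, on 33 and 19 UMIs, they were 6.47 and 7.30, which ends the call. *Hmmr* rests on 27 and 15 UMIs in 0-UMI cells of Ctrl and LP1 (1.03). *Aspm* and *Hmmr* reached 50 CPM only through the G2/M cells. The rule keeps cells with such transcripts out of the 0-UMI cells, so the calls of both genes are no support.

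After 4 hours, 454 of 3971 genes (11.4%) were higher and 258 (6.50%) lower past 2-fold in G2/M cells, and in 0-UMI cells 499 of 3701 (13.5%) and 338 (9.13%). Both comparisons with Ctrl use the same Ctrl library. *Ch25h*, which encodes cholesterol 25-hydroxylase, had 0.360, 0.654 and 127 CPM in Ctrl, LP1 and LP4, with a single UMI behind the first value, and a log2 ratio of 8.46 (5.98 to 13.77). *Nos2*, the inducible nitric oxide synthase, had no UMI in G2/M cells of Ctrl or LP1, against 1188 UMIs (225 CPM) in LP4. With a floor of 3 counts over the group, its log2 ratio was at least 7.70. *Cxcl3*, a neutrophil chemoattractant, had 10, 54 and 2418 UMIs in G2/M cells, with a ratio of 6.99 (6.11 to 8.05) in G2/M cells and 6.95 in 0-UMI cells. Also among the 10 largest rises were *Fpr3*, of the formyl peptide receptor family, with 1 UMI in Ctrl (7.21, 4.72 to 12.52), and *Cmpk2*, a mitochondrial nucleotide kinase (6.07, 5.41 to 6.83). The cytokines and effectors were higher past 2-fold in 22 of 32 cases and lower in 4, against 11.4% and 6.50% of all genes, with a median of 1.87 in G2/M cells and 2.19 in 0-UMI cells. *Tnf*, the tumour necrosis factor gene, was among those lower, at 898, 1097 and 194 CPM, a ratio of -2.21. In G2/M cells, *Ccl5* and *Ccl4* of this list reached 50 CPM only through LP4, so its count and medians are no support.

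Interferon-stimulated genes were higher past 2-fold in LP4 in 32 of 34 cases in G2/M cells (11.4% of all genes), with a median of 2.86, and in 33 of 37 in 0-UMI cells (13.5% of all genes), with a median of 2.61. Several of these genes reached 50 CPM only through LP4, so these counts and medians are no support. *Ifit1*, which encodes an RNA-binding antiviral protein, had 16.2, 23.1 and 1104 CPM in G2/M cells (LP4 to Ctrl 6.09, 5.67 to 6.55) and 43.6, 32.4 and 2126 CPM in 0-UMI cells (5.61). *Rsad2*, viperin, had 77.1, 96.1 and 3447 CPM in G2/M cells (5.48, 5.29 to 5.68) and 143, 109 and 5220 CPM in 0-UMI cells (5.19). The levels of both in LP4 were lower in G2/M cells, while their ratios to Ctrl were larger there by 0.48 (0.05 to 0.91) and 0.29 (0.09 to 0.49). These differences depended on the reference and the cells, at 0.19 and 0.01 with 0-UMI cells matched on total UMIs and at 0.85 and 0.79 without the 5% highest doublet scores. Over the 36 genes of the list compared in both classes, the median of this difference was 0.13 and none was past 2-fold. Of all genes, 1.03% were higher and 0.382% lower past 2-fold in this difference, so none of 36 is near those shares. At 2000 UMIs per cell, *Ifit1* was seen in 70.8% of LP4 G2/M cells (64.6 to 76.4) and 87.2% of 0-UMI cells (86.1 to 88.2), and *Rsad2* in 81.5% (76.0 to 86.2) and 92.7% (91.9 to 93.5). The median cell held 26 UMIs of the interferon list in G2/M cells and 39 in 0-UMI cells, with quartiles from 14 to 38 and from 26 to 55. Across the bins of rule-gene UMIs in LP4, the summed list stood at 21192 CPM in 0-UMI cells, 18952 CPM at 1 UMI, 17527 CPM just inside the rule, 13712 CPM at 6 to 9 UMIs and 14126 CPM at 10 or more. In Ctrl it stood at 2302 CPM in 0-UMI cells and followed no order inside the rule, with 1639, 1298, 1684 and 1382 CPM in its 4 bins.

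Immediate early and feedback genes were lower in LP4, 14 of 22 past 2-fold (6.50% of all genes), with a median of -1.99 in G2/M cells and -2.47 over 24 genes in 0-UMI cells. Several of them reached 50 CPM only through Ctrl, so this count and these medians are no support. *Fos* stood at 601, 420 and 26.7 CPM (-4.49, -4.75 to -4.24), and *Egr1*, another transcription factor of this group, at 222, 268 and 4.55 CPM (-5.60, -6.26 to -5.02). *Fosb* (-5.87), *Nr4a1* (-4.37), *Nr4a2* (-3.95) and *Egr2* (-3.50), all transcription factors, *Nfkbid*, an inhibitor of the NF-κB family (-3.40), and *Nrros* (-3.06) were also among the 10 largest falls. *Dusp5*, a phosphatase of ERK kinases, had 229, 197 and 22.4 CPM, and *Plau*, the urokinase gene, 619, 564 and 72.8 CPM. Among macrophage genes, 3 of 26 were higher and 3 lower past 2-fold, against 11.4% and 6.50% of all genes, and *Csf1r* stood at 617, 428 and 320 CPM (-0.95, -1.04 to -0.85), near the ratio of -0.86 in 0-UMI cells. Glycolysis held 1 gene higher and 1 lower of 13. Cholesterol synthesis had a median of 0.45 over 8 genes with none past 2-fold. The respiratory chain had a median of -0.42 and ribosomal proteins of -0.39, close to -0.42 and -0.40 in 0-UMI cells, and the proteasome 0.01.

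The mitotic transcripts of G2/M cells differed little between Ctrl and LP4. Of 69 mitotic genes compared, 1 was higher (*Cdk1*, the mitotic kinase) and 1 lower (*Aspm*, which encodes a spindle pole protein, -1.09) past 2-fold, against 11.4% and 6.50% of all genes, with a median of -0.21. *Ccnb1* stood at 78.9, 73.4 and 71.5 CPM (-0.14, -0.39 to 0.11), *Kif11*, which encodes the spindle motor Eg5, at 127, 120 and 114 CPM (-0.15, -0.34 to 0.04), and *Knl1*, a kinetochore scaffold gene, at 127, 118 and 123 CPM (-0.05, -0.24 to 0.15). Levels were lower in LP4 for *Incenp* (-0.76, -0.91 to -0.60), *Hmgb2*, which encodes a chromatin protein (-0.77, -0.86 to -0.67), and for *Stmn1* (-0.73, -0.81 to -0.64). The rule asked for mitotic transcripts in every library, so similar levels in the selected cells are no support. It counts UMIs at each cell's own depth and so asks for a lower CPM in the deeper LP4 cells. Together, the 4 rule genes stood at 981, 853 and 758 CPM in G2/M cells of Ctrl, LP1 and LP4. How far this sets the lower levels in LP4 was not tested. Of the 23 DNA replication genes compared, 4 were lower and 1 higher past 2-fold, against 6.50% and 11.4% of all genes, with a median of -0.41. *Atad2*, a chromatin factor of S phase, stood at 154, 162 and 70.2 CPM (-1.14, -1.34 to -0.93) and *Dnmt1*, the maintenance DNA methyltransferase, at 170, 163 and 88.6 CPM (-0.94, -1.13 to -0.76). *Pcna* was the gene higher, at 165, 311 and 432 CPM (1.39, 1.25 to 1.54).

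Whether G2/M cells differed from 0-UMI cells in their ratio of LP4 to Ctrl was examined by the difference of both log2 ratios. It was past 2-fold for 59 of 4186 genes, higher in G2/M cells for 43 (1.03%) and lower for 16 (0.382%), and within 0.5 on the log2 scale for 91.4%. With TMM scaling it was higher for 20 and lower for 27 genes. Mitotic genes took 13 of the 43 and 2 of the 16, with a median of 0.47 over the 69 compared, against 0.04 over all genes. Most of them reached 50 CPM only through the G2/M cells, and the rule keeps cells with such transcripts out of the 0-UMI cells, so these counts and this median are no support. *Kif11* stood at 127 and 114 CPM in G2/M cells of Ctrl and LP4 but at 2.75 and 0.799 CPM in 0-UMI cells, a difference of 1.63 (1.05 to 2.21), and *Cit*, the citron kinase gene of cytokinesis, at 86.5 and 52.5 CPM against 3.43 and 0.656 CPM (1.67, 1.04 to 2.29). *Cep55*, which encodes a midbody protein, had 56.9 and 42.9 CPM against 1.77 and 0.328 CPM (2.02, 1.16 to 2.88). The 0-UMI cells hold few UMIs of such genes, and having none of the 4 rule genes is a stricter condition in the deeper LP4 library. With 0-UMI cells matched on total UMIs within each library, which leaves the gap in depth between libraries, the differences were 2.73 for *Kif11*, 1.49 for *Cit* and 1.47 for *Cep55* and rest on 4, 8 and 5 UMIs in the matched LP4 cells. *Aspm*, 1 of the 2 lower mitotic genes, had a difference of -1.23 (-2.32 to -0.13) that went to 0.02 with all other kept cells as the reference. *Tpx2*, an activator of the Aurora A kinase, went the other way, at 222 and 190 CPM in G2/M cells and 8.76 and 18.8 CPM in 0-UMI cells (-1.32, -1.57 to -1.07, but -0.88 and under 2-fold with all other kept cells as the reference), as did *Cdkn2d*, at 67.7 and 67.3 CPM against 8.59 and 22.6 CPM (-1.40, -1.72 to -1.08). *Efcab11*, an EF-hand gene, was higher at 56.9 and 43.4 CPM against 2.85 and 0.594 CPM (1.87, 1.20 to 2.55). The linker histone *Hist1h1d* stood at 93.3 and 71.9 CPM in G2/M cells and at 0.917 and 4.08 CPM in 0-UMI cells (-2.53, -3.15 to -1.91), where the Ctrl value of 0-UMI cells rests on 27 UMIs. Its difference was -1.19 with all other kept cells as the reference, and the matched Ctrl cells held 1 UMI of it, too few for a value.

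Among inflammatory genes, the difference was past 2-fold for 3 of 30, all chemokine genes and all higher in G2/M cells, where it was higher for 1.03% of all genes. From Ctrl to LP4, *Ccl5* stood at 3.60, 8.01 and 295 CPM in G2/M cells and at 12.4, 11.3 and 340 CPM in 0-UMI cells, a difference of 1.57 (0.66 to 2.48) that rests on 10 UMIs in G2/M cells of Ctrl. *Ccl4* stood at 44.7, 152 and 2065 CPM against 126, 321 and 2614 CPM (1.15, 0.89 to 1.41). Against all 0-UMI cells, both were lower in G2/M cells of Ctrl by more than 2-fold and nearer to the 0-UMI level in LP4. Against matched 0-UMI cells, the log2 ratio of *Ccl4* in Ctrl was -0.57, under 2-fold. *Ccl7*, a chemokine gene, stood at 131, 260 and 284 CPM against 168, 257 and 131 CPM (1.48, 1.30 to 1.65), so that in LP4 it was higher in G2/M cells. With 0-UMI cells matched on total UMIs, all 3 fell under 2-fold, at 0.93 for *Ccl5*, 0.45 for *Ccl4* and 0.85 for *Ccl7*. In LP4 cells thinned to 2000 UMIs, *Ccl4* was seen in 78.2% of G2/M cells (72.5 to 83.2) and 81.4% of 0-UMI cells (80.2 to 82.6), and *Nos2* in 24.3% and 19.2%. The ratio of LP4 to Ctrl was smaller in G2/M cells for *Vcan*, which encodes the proteoglycan versican (28.8 and 209 CPM against 21.7 and 397 CPM, a difference of -1.34, -1.68 to -0.99), and for *Hdac9*, a histone deacetylase gene (38.2 and 90.1 CPM against 22.8 and 167 CPM, -1.64, -1.96 to -1.31). The largest difference in that direction was that of *Tnfsf15*, a cytokine gene of the TNF family, at 1.44 and 30.5 CPM against 0.407 and 53.1 CPM (-2.62, -4.27 to -0.97), and it rests on 4 and 12 UMIs in Ctrl. *Ifit3b*, an interferon-stimulated gene with a near-identical copy, went the other way at 1.08 and 32.2 CPM against 8.18 and 57.3 CPM (2.09, 0.43 to 3.75), with 3 UMIs in G2/M cells of Ctrl. *Nr4a1* and *Egr1* were less low in LP4 G2/M cells, with differences of 1.19 (0.34 to 2.04) and 1.02 (0.39 to 1.66) that rest on 14 and 24 UMIs there and were 0.63 and 0.48 with the matched reference.

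**Figure D4:**
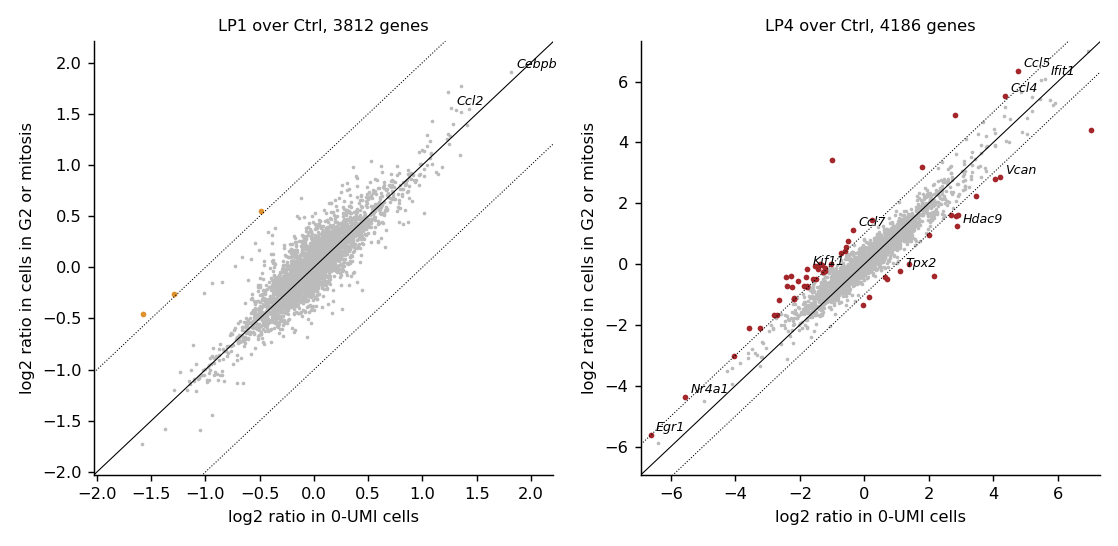
Log2 ratio of LP1 (left) or LP4 (right) to Ctrl in G2/M cells against that in 0-UMI cells, for genes with at least 3 UMIs in each of the 4 sums and 50 CPM in one. The solid line marks equal ratios, dotted lines a difference of 2-fold, and coloured points lie beyond it, 3 of 3812 genes in LP1 and 59 of 4186 in LP4.

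The gene with the largest difference, *Camp*, which encodes the granule protein cathelicidin, stood at 5.40, 20.6 and 57.7 CPM in G2/M cells and 4.58, 5.05 and 2.29 CPM in 0-UMI cells (4.41, 3.58 to 5.24). It is one of the neutrophil markers. Without cells of 100 or more neutrophil marker UMIs, no UMI of *Camp* was left in G2/M cells of Ctrl or LP4. For *Ccl5*, *Ccl4* and *Ccl7*, the differences without those cells were 1.58, 1.16 and 1.48.

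**Figure D5:**
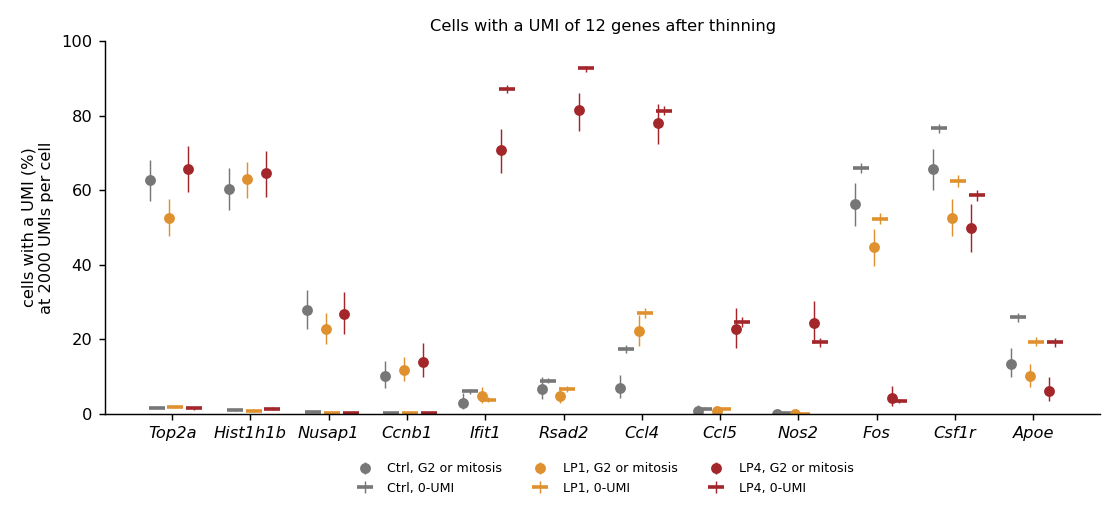
Percent of cells with at least 1 UMI of 12 genes after each cell was thinned to 2000 UMIs, in G2/M cells (circles) and 0-UMI cells (dashes) of Ctrl, LP1 and LP4, with exact binomial 95% intervals. *Top2a* and *Hist1h1b* are seen in 52.7% to 65.8% of G2/M cells and under 2% of 0-UMI cells, and *Ifit1* and *Rsad2* in most LP4 cells of both classes but in fewer G2/M cells.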

How the data were processed

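Per the labels, the authors processed the 3 libraries with Cell Ranger 7.1.0 on mm10. The deposited values are raw UMI counts per gene and barcode, for 32285 genes, with no normalization. Kept barcodes exceeded 500 UMIs and 500 genes, with a mitochondrial share below 5%. UMIs were summed over the cells of a class and library, scaled to CPM and compared at 50 CPM or more in the higher sum. Ratios have exact conditional binomial intervals and differences of ratios normal counting intervals. Matched references took 2 0-UMI cells per G2/M cell. A class with no UMI was set to a floor of 3 counts. The ratio scripts were tested on simulated data. Scrublet scores served as an alternative. Python 3.11.15, scanpy 1.11.5 and edgeR 4.0.16 (TMM only) were used.

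The cells, gene lists and comparisons were chosen with earlier results of these data known. Named genes were the markers, the 4 most abundant of each list and members past 2-fold in all 3 libraries where up to 6, the genes most above (15) and below (10) the 0-UMI cells, the 10 largest rises and falls in LP1 and LP4 and the 5 largest differences each way. Not all of the genes so chosen are reported here. Others named were chosen after their values were seen, among them *Zfp36*, *Junb*, *Cdk1*, *Incenp*, *Vcan* and *Nr4a1*. Of all symbols listed, 3 matched no gene. Promoters and proteins of histone genes were not used here.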

Additional observations from a re-analysis of the deposited data

Results flagged for a closer look

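Barcodes left out by the limits on UMIs, genes and mitochondrial share were not part of the comparisons. Of the 369 such barcodes of LP4, 23 passed the rule on *Cenpf*, *Prc1*, *Ube2c* and *Birc5*, a share of 6.23% (exact binomial interval 3.99 to 9.21), which is above the share among removed barcodes of Ctrl, 2 of 52 (3.85%, 0.469 to 13.2). The intervals overlap. In LP1 it was 4 of 54 (7.41%). The difference was not tested.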

How the results depend on the processing

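No paired analysis was possible because each condition has 1 library and the labels give no replicate numbers. Counts are given as higher and lower past 2-fold. Asking for 2 or more rule-gene UMIs gave shares of 6.05%, 9.12% and 5.97% in Ctrl, LP1 and LP4, and of 2.66%, 2.97% and 1.71% after thinning. Asking for 5 or more of 3 genes gave 3.23%, 5.03% and 4.00%, and 0.555%, 0.633% and 0.346% after thinning, and 26 genes with a lower LP4 difference. Thinning to 1000 UMIs gave 0.595%, 0.810% and 0.473%, and to 4000 UMIs 4.01%, 3.71% and 2.53%, where Ctrl stood above LP1. For G2/M over 0-UMI cells, TMM scaling gave 62, 34 and 118 genes lower in Ctrl, LP1 and LP4 and 137 higher in LP4, and median of ratios scaling 62, 36 and 102 lower. The mean of cell shares gave 53, 22 and 32 lower. A minimum of 100 CPM gave 96 and 14, 92 and 6, and 92 and 11 genes, and a minimum of 20 CPM 447 and 51, 426 and 29, and 459 and 40, since other numbers of genes were compared. For LP4 over Ctrl in G2/M cells, these minimums gave 271 and 145, and 712 and 449 genes, and for LP1 the lower one gave 53 and 55. The difference of LP4 ratios was past 2-fold for 20 and 27 genes with TMM, 23 and 25 with median of ratios, 20 and 8 at 100 CPM and 96 and 31 at 20 CPM, and 68 were higher with the mean of cell shares. Where no construction explains a shift, the cause was not tested. The other 155 counts and shares stayed within 1.5 times the reported count or within its interval. Of 1816 values of single genes in the comparison that ranked them, 234 left their counting interval and 1815 kept their direction, all but *Cmss1* in LP4 with matched 0-UMI cells. Genes near 0 in other comparisons turned: over 0-UMI cells, *Rsad2* in LP1 went from -0.18 to 0.47 and *Ccl7* in Ctrl from -0.36 to 0.27 with that reference, and *Tnf* in Ctrl from 0.11 to -0.06 with TMM. *Aspm*, further from 0, had a difference of LP4 ratios of -1.23 that turned to 0.02 with all other kept cells as reference. Leaving out cells of 100 or more neutrophil marker UMIs was chosen after seeing the data. No replicates, unequal depth and a rule on sparse UMIs limit these values, and counting intervals say nothing of the spread between cultures.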
